A study of Homo sapiens with 9 samples.

Results

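RNA was measured in Hep3B, a human liver cancer cell line, and the cell cycle itself was not. The genes described here are known regulators of the first gap phase of that cycle. They are the 3 D-type cyclins (CCND1, CCND2 and CCND3), the unconventional cyclin CCNG2, the CIP/KIP inhibitors of cyclin-dependent kinases (CDKN1A, CDKN1B and CDKN1C) and 3 of the INK4 inhibitors (CDKN2B, CDKN2C and CDKN2D). Members were found by gene symbol, and all 10 were among the 60683 genes of the count table. The study sequenced RNA from 3 groups of 3 libraries, labelled as biological replicates, from Hep3B cultures kept for 24 hours: vehicle (DMSO) at 20% O2, vehicle at 1% O2, and the compound 32-134D at 1% O2. The compound is a small molecule inhibitor of the hypoxia-inducible factors (HIFs), the labels give no dose for it, and no culture received it at 20% O2. The comparison of the vehicle groups asks what low oxygen did, and the comparison at 1% O2 asks what the HIF inhibitor did to that response.

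D-type cyclins bind CDK4 and CDK6, and the active kinase phosphorylates the retinoblastoma protein and its relatives, which frees E2F factors to start the genes of DNA synthesis. INK4 proteins bind CDK4 and CDK6 and keep D cyclins from them, whereas CIP/KIP proteins bind whole cyclin-kinase complexes and block those built on CDK2. Cyclin G2, unlike the D cyclins, is known as a brake on the cycle and as a target gene of FOXO factors. In hypoxic cells HIFs switch on genes through short response elements, and many cell types slow their division when oxygen is low.

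The libraries held 6013980 to 40549699 assigned counts, the smallest being vehicle at 20% O2 replicate 2. Levels are given as CPM, counts scaled to a common library size, after scaling by the trimmed mean of M-values (TMM), and tests are from edgeR's quasi-likelihood fit of all 9 libraries over 22672 genes, with Benjamini-Hochberg adjusted p-values given as edgeR FDR. A gene rose or fell where the FDR was below 0.05 and the fold above 1.5. One library stood apart: 32-134D replicate 3 lay 0.385 log2 CPM (root mean square) from the other 2 of its group, against 0.122 to 0.235 for the other 8 libraries, so results that rest on it are given with and without it. All 10 liver lineage markers (ALB and AFP among them) had at least 10 counts in every library. Their summed level was 18437 to 19899 CPM in vehicle at 20% O2, 13602 to 16964 CPM in vehicle at 1% O2, and with 32-134D 18236, 17960 and, in replicate 3, 11906 CPM. Fibroblast markers summed to 36.1 to 39.7, 17.1 to 18.5 and 35.4 to 43.4 CPM in the same order, and leukocyte markers, mostly LYZ, to 23.7 to 30.0, 7.71 to 10.1 and 12.5 to 21.8 CPM with 1 of 5 at 0 throughout. Endothelial markers summed to 0.639 to 1.00, 0.0943 to 0.380 and 0.505 to 1.28 CPM with 3 of 5 at 0 throughout. The part of these shifts in the results was not tested. Vehicle cultures at 1% O2 had TMM factors of 0.901 to 0.930 and the other libraries 1.03 to 1.07, and scaling by total counts moved the median log2 fold change of all genes to -0.21 for hypoxia and 0.17 for the compound. As these are whole cultures of a single cell line, fewer cells expressing a gene and less of its RNA per cell cannot be told apart.

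Promoter sequences of the 3 members that rose at 1% O2 are shown first, because the known HIF response element has the core ACGTG or GCGTG. RefSeq (GRCh38.p14) gave windows from 250 bases before to 50 bases after the start for 7 of the 10 members, and not for CCND1, CCND2 and CDKN1C. Capitals mark every ACGTG or GCGTG on either strand, so that CACGT and CACGC are the same cores read from the other strand. The windows are chr4:77156957-77157256 (plus strand) for CCNG2, chr12:12717118-12717417 (plus strand) for CDKN1B and chr19:10568930-10569229 (minus strand) for CDKN2D.
CCNG2: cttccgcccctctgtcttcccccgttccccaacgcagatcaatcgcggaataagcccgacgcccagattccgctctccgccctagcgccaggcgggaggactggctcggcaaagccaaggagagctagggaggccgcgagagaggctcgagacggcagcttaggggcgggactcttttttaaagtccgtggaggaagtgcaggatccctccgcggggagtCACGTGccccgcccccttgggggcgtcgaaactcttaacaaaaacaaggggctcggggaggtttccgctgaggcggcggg
CDKN1B: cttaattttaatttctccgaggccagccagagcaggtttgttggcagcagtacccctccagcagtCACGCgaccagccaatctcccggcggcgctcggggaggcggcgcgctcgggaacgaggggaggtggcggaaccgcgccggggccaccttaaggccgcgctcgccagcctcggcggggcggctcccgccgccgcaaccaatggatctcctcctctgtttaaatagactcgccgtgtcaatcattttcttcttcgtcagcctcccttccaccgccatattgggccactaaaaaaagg
CDKN2D: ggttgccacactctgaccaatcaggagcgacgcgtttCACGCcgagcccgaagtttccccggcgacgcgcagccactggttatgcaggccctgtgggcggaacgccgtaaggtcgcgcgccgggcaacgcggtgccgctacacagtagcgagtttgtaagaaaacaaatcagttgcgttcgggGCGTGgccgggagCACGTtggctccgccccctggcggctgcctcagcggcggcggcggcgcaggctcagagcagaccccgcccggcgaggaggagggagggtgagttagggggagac

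The CCNG2 window held the palindrome CACGTG at base 221, which reads as ACGTG on both strands and is also the E-box bound by MYC and its relatives. The CDKN1B window held 1 GCGTG, and the CDKN2D window held 1 ACGTG and 2 GCGTG. Such cores are common: 48.4% of all 35116 RefSeq windows of this length held at least 1 of them on either strand (ACGTG 21.4%, GCGTG 36.5%), and 7.26% held CACGTG. Of the 11 windows of the 7 members, 8 held a core and 3 did not. CDKN2C, whose level was not higher at 1% O2, had 3 windows that all held cores, and CDKN2B had none in its 1 window. The forkhead sequence TGTTTAC, present in 3.42% of all windows, was found in 1 member window, a CCND3 window. A match in these letters is a description of the window and no evidence of binding.

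At 1% O2, 3 of the 10 members rose (CCNG2, CDKN1B and CDKN2D) and 2 fell (CCND1 and CDKN1C), where 19.5% of all genes tested rose and 20.3% fell. Fitted on the 2 vehicle groups alone, 4 rose and 3 fell, with CDKN2B added to the first and CDKN2C to the second. The same 2 genes also passed without 32-134D replicate 3. With 32-134D at 1% O2, 1 member rose (CCND1) and 3 fell (CCNG2, CDKN1B and CDKN2D), where 16.2% of all genes rose and 13.7% fell. Both comparisons use the vehicle libraries at 1% O2, so a deviation of those libraries enters each with opposite sign, and the values below are given side by side and not as 2 independent results. The median log2 fold change of the members was 0.24 for hypoxia and 0.04 for the compound, against 0.00 and -0.01 over all genes tested. Against vehicle at 20% O2, edgeR called none of the 10 members in cells with 32-134D at 1% O2, where 3.52% of all genes were called in either direction and 0.516% lower. At an unadjusted p below 0.05 there were 4 members higher and 3 lower in that comparison, and DESeq2 called 1 higher, CDKN2D.

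**Figure D1:**
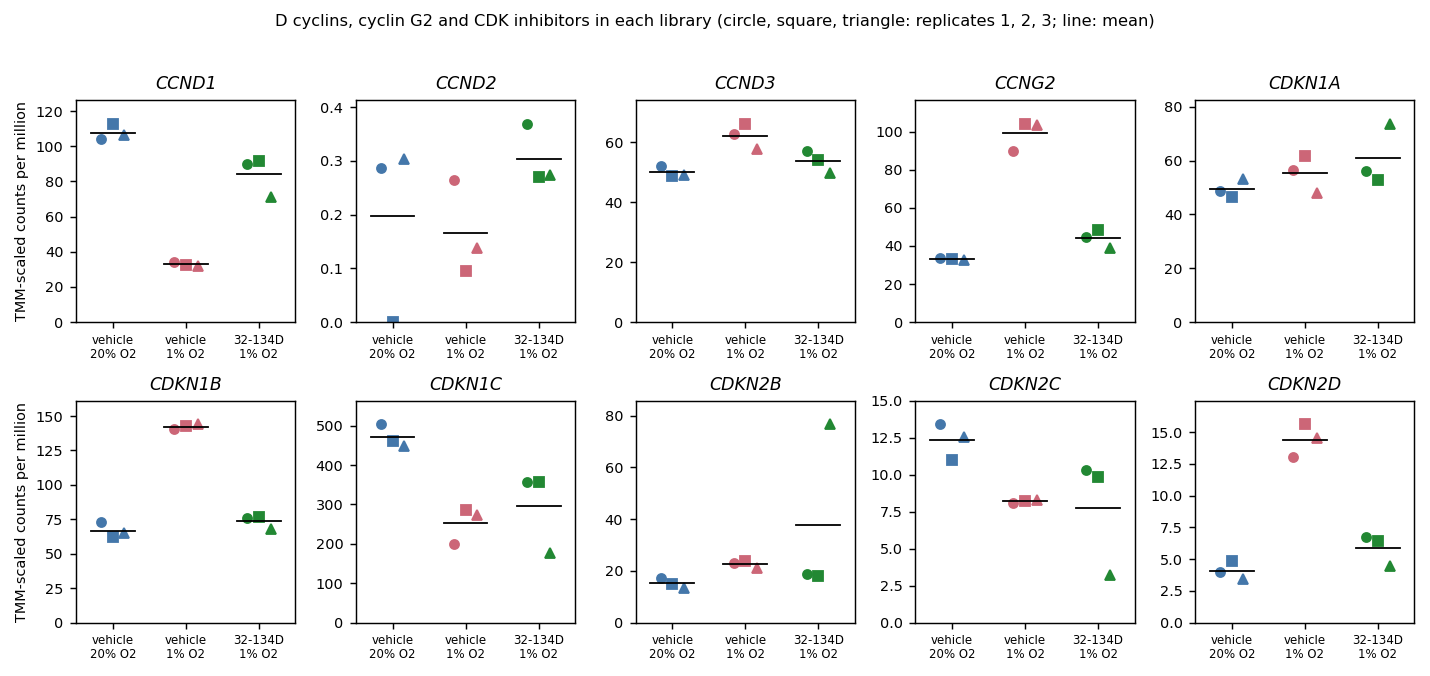
Level of each member in each of the 9 libraries, in TMM-scaled CPM on a linear axis that starts at 0; circles, squares and triangles are replicates 1, 2 and 3, and the line is the group mean. CCND1 lies between 31.9 and 34.2 in vehicle at 1% O2 and at 71.3 or more in every other library, and the triangle of 32-134D stands apart in CDKN2B, CDKN2C and CDKN1C.

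CCND1 (ENSG00000110092, GRCh38 chromosome 11, 69641087 to 69654474) encodes cyclin D1, the D cyclin most often amplified in tumors. Its level was 104, 113 and 107 CPM in the vehicle libraries at 20% O2, 34.2, 32.5 and 31.9 CPM in those at 1% O2, and 90.0, 91.3 and 71.3 CPM with 32-134D at 1% O2. The 3 groups did not overlap: hypoxic vehicle was lowest, and every treated library lay below every library at 20% O2. CCND1 fell 3.27-fold at 1% O2 (log2 fold change -1.71 ± 0.09 SE, edgeR FDR = 1.67e-09). With 32-134D it rose 2.56-fold over hypoxic vehicle (log2 fold change 1.36 ± 0.09, edgeR FDR = 3.97e-08). Treated cells stayed -0.35 (95% confidence interval -0.55 to -0.16) on the log2 scale from vehicle at 20% O2, under the fold threshold (edgeR FDR = 0.0239). Exons of CCND1 share 497 bases with LTO1 on the opposite strand, which had 3565 counts over the 9 libraries beside 16014 for CCND1; whether counting used strand is not given in the sources used here, so reads in that stretch cannot be told apart.

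CCND3 (ENSG00000112576, chromosome 6, 41934933 to 42050357, minus strand), cyclin D3, moved much less. It measured 52.0, 48.8 and 48.9 CPM at 20% O2, 62.7, 66.0 and 57.8 CPM at 1% O2, and 57.0, 54.1 and 49.5 CPM with 32-134D. Hypoxic vehicle was highest and overlapped neither other group, while treated cells overlapped vehicle at 20% O2. The log2 fold change was 0.32 ± 0.08 for hypoxia (edgeR FDR = 0.00425) and -0.21 ± 0.08 for the compound (edgeR FDR = 0.0385), both under the fold threshold. CCND2 (ENSG00000118971, chromosome 12, 4273772 to 4305350), cyclin D2, was close to absent, with 57 counts over all 9 libraries and 0 to 13 in any one. The 0 in vehicle at 20% O2 replicate 2 allows a level of up to 0.471 CPM at that depth, which is above the highest level in any library, 0.369 CPM. Its log2 fold changes of -0.49 (95% confidence interval -1.87 to 0.89) and 0.78 (-0.43 to 1.997) were not distinguishable from 0 at this depth.

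CCNG2 (ENSG00000138764, chromosome 4, 77157151 to 77433388), the cyclin with the CACGTG window shown above, went the other way from CCND1. Its level was 33.8, 33.3 and 32.5 CPM in vehicle at 20% O2, 90.0, 104 and 103 CPM in vehicle at 1% O2, and 44.9, 48.3 and 38.8 CPM with 32-134D. No 2 groups overlapped, and treated libraries lay between the vehicle groups. CCNG2 rose 2.99-fold at 1% O2 (log2 fold change 1.58 ± 0.09, edgeR FDR = 3.44e-09) and fell 2.25-fold with the compound (log2 fold change -1.17 ± 0.09, edgeR FDR = 1.18e-07). Treated cells were 0.41 (95% confidence interval 0.21 to 0.61) above vehicle at 20% O2 on the log2 scale, under the fold threshold (edgeR FDR = 0.0121).

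**Figure D2:**
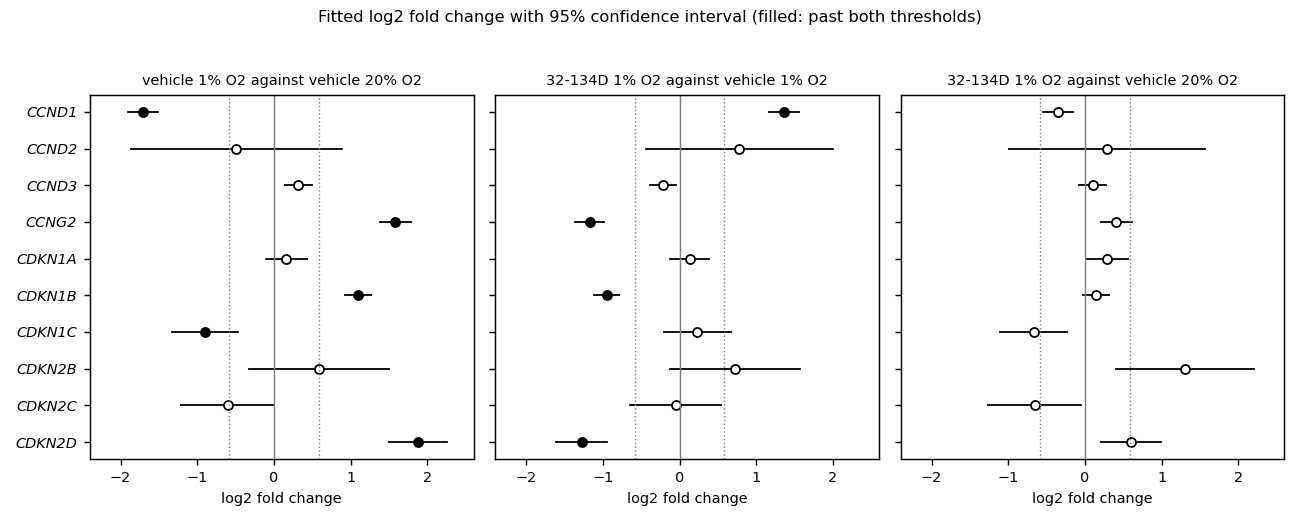
Fitted log2 fold change of each member in the 3 comparisons (points) with 95% confidence intervals (bars); filled points passed both thresholds and dotted lines mark a fold of 1.5. CCNG2, CDKN1B and CDKN2D are filled to the right for hypoxia and to the left for the compound, and no point is filled against vehicle at 20% O2.

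Among the CIP/KIP inhibitors, CDKN1B (ENSG00000111276, chromosome 12, 12715058 to 12722371), which encodes p27 and restrains CDK2 in resting cells, was the member that rose. It measured 72.9, 61.9 and 64.9 CPM at 20% O2, 140.5, 143 and 144 CPM at 1% O2, and 76.0, 76.7 and 68.3 CPM with 32-134D. The 3 hypoxic vehicle libraries lay far above both other groups, which overlapped each other. CDKN1B rose 2.13-fold at 1% O2 (log2 fold change 1.09 ± 0.08, edgeR FDR = 2.39e-08) and fell 1.93-fold with the compound (log2 fold change -0.95 ± 0.08, edgeR FDR = 1.94e-07). The difference from vehicle at 20% O2 was 0.14 (95% confidence interval -0.02 to 0.31, edgeR FDR = 0.286).

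CDKN1C (ENSG00000129757, chromosome 11, 2883213 to 2885773, minus strand) encodes p57, an imprinted inhibitor expressed mainly from the maternal copy. It measured 503, 462 and 449 CPM at 20% O2, 199, 286 and 273 CPM at 1% O2, and 358, 356 and 176 CPM with 32-134D. The vehicle groups did not overlap, whereas the treated group spanned the hypoxic one, with replicate 3 below every other library. CDKN1C fell 1.87-fold at 1% O2 (log2 fold change -0.90 ± 0.20, edgeR FDR = 0.00165). With the compound the log2 fold change was 0.23 ± 0.20 (edgeR FDR = 0.377), and without 32-134D replicate 3 it was 0.50 (edgeR FDR = 6.28e-05), still under the fold threshold. Against vehicle at 20% O2 it was -0.67 (edgeR FDR = 0.0517), and it passed both thresholds at -0.82 when 32-134D replicate 1 or replicate 2 was left out (edgeR FDR = 0.0257 and 0.0298), but not at -0.40 without replicate 3.

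CDKN1A (ENSG00000124762, chromosome 6, 36676460 to 36687339) encodes p21, an inhibitor induced by many kinds of stress. Its level was 48.5, 46.3 and 52.98 CPM at 20% O2, 56.5, 61.6 and 48.0 CPM at 1% O2, and 56.1, 52.7 and 73.6 CPM with 32-134D. All groups overlapped, and the highest value was again that of 32-134D replicate 3. The log2 fold change was 0.16 (95% confidence interval -0.11 to 0.42, edgeR FDR = 0.299) for hypoxia and 0.13 (-0.12 to 0.39, edgeR FDR = 0.392) for the compound, so a 1.5-fold change in either comparison lies outside the interval. Its sign was not stable: the hypoxia value was -0.054 with total library size as the scale, and the compound value was -0.022 without 32-134D replicate 3.

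Of the INK4 inhibitors, CDKN2D (ENSG00000129355, chromosome 19, 10566462 to 10569059, minus strand), which encodes p19-INK4d, had the largest rise of the members at 1% O2. It measured 3.94, 4.87 and 3.47 CPM at 20% O2 (55, 31 and 114 counts), 13.1, 15.6 and 14.5 CPM at 1% O2, and 6.78, 6.40 and 4.44 CPM with 32-134D. Hypoxic vehicle overlapped neither other group, and treated replicate 3 fell within the range at 20% O2. CDKN2D rose 3.67-fold at 1% O2 (log2 fold change 1.88 ± 0.18, edgeR FDR = 4.45e-07) and fell 2.42-fold with the compound (log2 fold change -1.28 ± 0.16, edgeR FDR = 1.09e-05). Compared with vehicle at 20% O2 the log2 fold change was 0.60 (95% confidence interval 0.20 to 0.99, edgeR FDR = 0.0536), and without 32-134D replicate 3 it was 0.78 and passed both thresholds (edgeR FDR = 0.000709).

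CDKN2B (ENSG00000147883, chromosome 9, 22002903 to 22009363, minus strand) encodes p15, the INK4 protein induced by TGF-beta. It measured 17.3, 14.9 and 13.5 CPM at 20% O2, 23.1, 23.9 and 21.1 CPM at 1% O2, and 18.6, 18.1 and 76.6 CPM with 32-134D. Treated replicate 3 was above every other library by more than 3 times, while treated replicates 1 and 2 lay between the vehicle groups. Over all 9 libraries the compound's log2 fold change was 0.72 ± 0.39 (edgeR FDR = 0.154); without replicate 3 it was -0.30 (edgeR FDR = 0.0129), and without replicate 1 or 2 it was 1.11 or 1.06 and passed both thresholds (edgeR FDR = 0.0170 and 0.0237). The spread of that library also entered the hypoxia test through the shared fit: the log2 fold change of 0.58 had an edgeR FDR of 0.273 with all libraries and 8.21e-06, at 0.59 and past both thresholds, without 32-134D replicate 3. Relative to vehicle at 20% O2 the value was 1.30 (edgeR FDR = 0.0689) with replicate 3 and 0.29 (edgeR FDR = 0.0906) without it. CDKN2B resembles its neighbor CDKN2A in sequence, so reads could be split between them, and its level is uncertain to that extent.

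CDKN2C (ENSG00000123080, chromosome 1, 50960745 to 50974633), which encodes p18, gave 13.4, 10.99 and 12.6 CPM at 20% O2, 8.11, 8.20 and 8.30 CPM at 1% O2, and 10.3, 9.83 and 3.20 CPM with 32-134D. The vehicle groups did not overlap, treated replicates 1 and 2 lay between them, and treated replicate 3 was the lowest library. The hypoxia log2 fold change was -0.60 ± 0.28 (edgeR FDR = 0.0872) with all libraries and -0.61, past both thresholds, without 32-134D replicate 3 (edgeR FDR = 1.56e-05). It also passed at -0.65 without 32-134D replicate 1 (edgeR FDR = 0.0448) and at -0.82 with total library size as the scale (edgeR FDR = 0.0230). For the compound it was -0.05 ± 0.28 (edgeR FDR = 0.896) with all libraries and 0.30 (edgeR FDR = 0.0292), under the fold threshold, without replicate 3.

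**Figure D3:**
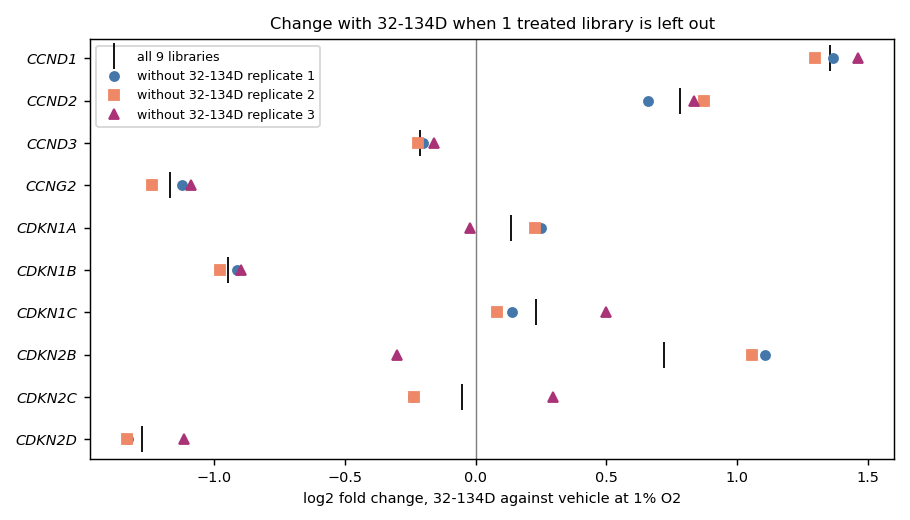
Log2 fold change of each member for 32-134D against vehicle at 1% O2 with all 9 libraries (vertical line) and with 1 treated library left out (circle, square and triangle for replicates 1, 2 and 3). CCND1, CCNG2, CDKN1B and CDKN2D keep their sign and distance from 0, and CDKN2B moves from 1.11 to -0.30 depending on the library left out.

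Divided by the length of each gene's joined exons, levels can be compared between genes (CPM per kb). CDKN1C was the most abundant member in every group, at 190.3 ± 11.3, 102 ± 18.9 and 120 ± 42.2 CPM per kb (SD, n = 3) in vehicle at 20% O2, vehicle at 1% O2 and 32-134D. CDKN1B was second in all groups, at 23.7 ± 2.03, 50.6 ± 0.615 and 26.2 ± 1.66 CPM per kb. At 20% O2 it was followed by CCND1, CDKN1A, CCND3, CCNG2, CDKN2B, CDKN2C, CDKN2D and CCND2, where CDKN1B and CCND1, and CDKN2B and CDKN2C, overlapped as neighbors in the order. At 1% O2 CCND1 stood at 6.80 ± 0.240 CPM per kb, below CDKN1A, CCNG2, CCND3 and CDKN2D, and only CCND3 and CDKN2D overlapped as neighbors. With 32-134D CCND1 came just after CDKN1A, at 17.4 ± 2.32 CPM per kb, and overlapped both it and CDKN2B below. The place of CDKN2B and its overlap rested on replicate 3, where it was at 18.9 CPM per kb. In treated replicates 1 and 2 CDKN2B was at 4.59 and 4.46 CPM per kb, and CCND3 at 9.82 and 9.33. The order depends on the length used: with the longest annotated transcript CCND3 moved above CCNG2 and CDKN1A in hypoxic vehicle. With 32-134D CCND3 then moved above CCND1 and CDKN2B, and at 20% O2 CDKN2B and CDKN2C changed places.

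The makeup of each family differed between the groups. CCND1 made up 72.1 ± 1.50% of the summed D cyclin level per length at 20% O2, 38.8 ± 1.48% at 1% O2 and 65.2 ± 1.81% with 32-134D (SD, n = 3), and CCND3 nearly all the rest, 27.8%, 61.1% and 34.7%. With the longest annotated transcript as the length the shares of CCND1 were 54.5%, 22.7% and 46.5% and those of CCND3 45.5%, 77.2% and 53.4%, so that CCND3 was then the larger part with 32-134D. The summed D cyclin level was 30.9 ± 0.699, 17.5 ± 0.827 and 26.7 ± 2.92 CPM per kb. In the CIP/KIP family the share of CDKN1B was 10.3 ± 0.393%, 29.9 ± 3.29% and 16.4 ± 3.46%, against 82.7 ± 0.828%, 59.4 ± 4.67% and 70.6 ± 9.69% for CDKN1C. CDKN1C thus remained the larger part of that family in every library, at 54.0% or more. The INK4 sum holds only CDKN2B, CDKN2C and CDKN2D. It leaves out CDKN2A, which encodes p16 and had a higher CPM than each of them in every library. Of that sum the share of CDKN2D was 26.7 ± 4.30%, 54.3 ± 2.23% and 28.8 ± 13.7%, and that of CDKN2C 36.5 ± 3.93%, 14.05 ± 0.737% and 18.3 ± 12.2%. CDKN2B held 37.6% to 38.2% of that sum in treated replicates 1 and 2 and 82.8% in treated replicate 3. With 3 libraries against 3 a two-sided exact permutation test cannot give a p below 0.1, the value found for the shares of CCND1, CDKN1B and CDKN2D between the vehicle groups and between treated and vehicle cells at 1% O2 (0.142 after Benjamini-Hochberg adjustment over 27 such tests). The shares of CCND2, CDKN1A, CDKN1C and CDKN2C overlapped between treated and vehicle cells at 1% O2 (permutation p = 0.6, 0.8, 0.3 and 0.4).

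**Figure D4:**
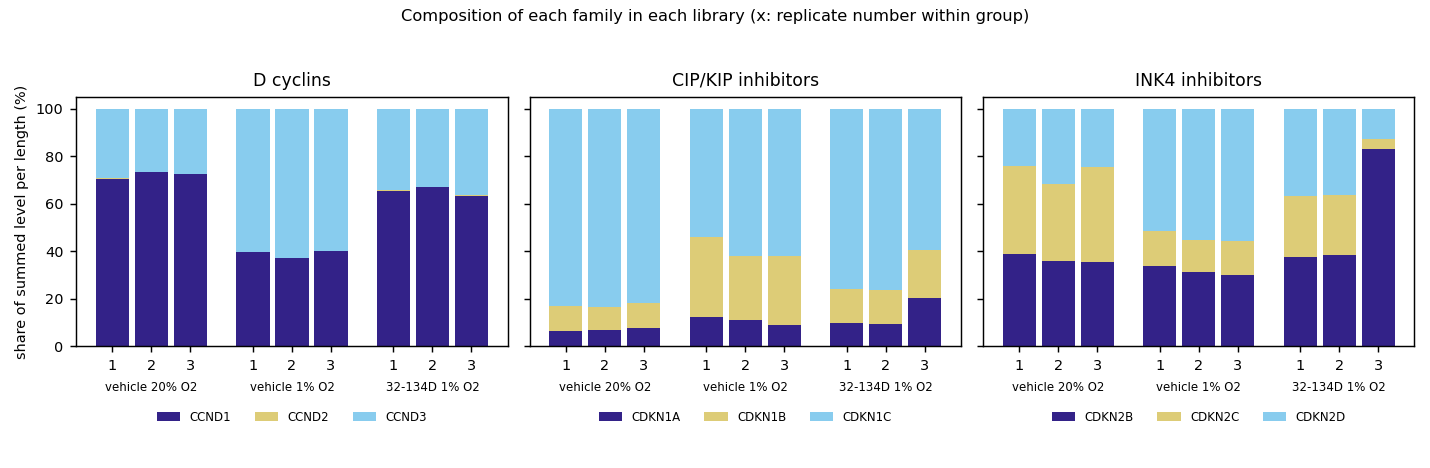
Share of each gene in the summed level per length of its family, in percent, for each library (bars grouped by condition, x axis giving the replicate number). CCND1 holds 70.5% or more of the D cyclins in vehicle at 20% O2, 39.9% or less in vehicle at 1% O2 and 63.3% or more with 32-134D, and CDKN2B fills 82.8% of the INK4 bar in 32-134D replicate 3. The INK4 bars hold CDKN2B, CDKN2C and CDKN2D and leave out CDKN2A.

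Across the 9 libraries, the protein-coding genes whose centered log2 CPM was closest to that of CDKN2D, the member with the highest log2 fold change at 1% O2, were TENT5A, RTN4R and NFIL3, at root mean square differences of 0.114, 0.115 and 0.121 among 10979 genes with a mean count of at least 100. CDKN2D itself varied by 0.834 (SD of log2 CPM over the libraries), so these differences are small beside the range they follow.

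The partners of the members were read from lists of 73 genes, 71 of which were tested (CCNA1 and FAS were too low). Of these, 27 rose and 10 fell at 1% O2, and 5 rose and 17 fell with 32-134D, where 19.5% and 20.3% of all genes rose and fell at 1% O2 and 16.2% and 13.7% with the compound. Both splits depend on the scale: with total library size as the scale, 18 rose and 12 fell at 1% O2, and 12 rose and 11 fell with 32-134D. The counts over all 22672 genes moved as well. With total library size 3081 rose and 5848 fell at 1% O2, against 4412 and 4595 with TMM. With the compound 4755 rose and 1847 fell, against 3675 and 3100 with TMM. The median log2 fold change of the 71 genes was 0.27 for hypoxia and -0.22 for the compound, against 0.00 and -0.01 over all genes tested. Against vehicle at 20% O2, 6 were higher in treated cells (KLF4, MYC and 4 FOXO targets), and 4 were without 32-134D replicate 3, where MYC and IRS2 lost their calls at 0.47 and 0.37 on the log2 scale.

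Of 10 genes of the CDK4/6 and pocket protein arm, 2 rose and 2 fell at 1% O2, close to the shares of all genes. CDK6, a kinase bound by D cyclins, measured 76.5, 89.2 and 96.7 CPM at 20% O2, 28.0, 24.6 and 22.4 CPM at 1% O2, and 86.3, 90.8 and 297 CPM with 32-134D. Hypoxic vehicle was below all other libraries, and treated replicate 3 was more than 3 times above the rest. CDK6 fell 3.50-fold at 1% O2 (log2 fold change -1.81 ± 0.35, edgeR FDR = 0.000569) and rose with the compound, by 2.66 ± 0.35 on the log2 scale with all libraries (edgeR FDR = 2.66e-05) and by 1.82 without 32-134D replicate 3. CDK4, its more abundant relative, had a log2 fold change of -0.43 ± 0.07 for hypoxia (edgeR FDR = 7.86e-05) and 0.25 ± 0.07 for the compound (edgeR FDR = 0.00614), both under the fold threshold. RBL2, a relative of the retinoblastoma protein, fell by 0.71 on the log2 scale at 1% O2 (edgeR FDR = 1.58e-05). E2F1 rose by 0.65 (edgeR FDR = 1.45e-05), though not when vehicle at 20% O2 replicate 3 was left out or total library size was the scale. RB1 itself was scarce at 1.88 to 3.82 CPM, and its rise of 0.61 (edgeR FDR = 0.0120) was lost under 8 alternatives, among them DESeq2, total library size as the scale and leaving out replicate 2 of either vehicle group.

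Among genes of the CDK2 arm, on which CIP/KIP proteins act, 4 of 8 rose and 1 fell at 1% O2, and 3 fell with the compound. Of all genes tested 19.5% rose and 20.3% fell at 1% O2, and 13.7% fell with the compound. CDK7, the catalytic subunit of the CDK-activating kinase, rose by 1.49 ± 0.09 on the log2 scale at 1% O2 (edgeR FDR = 6.91e-09) and had -1.02 ± 0.09 with 32-134D (edgeR FDR = 4.15e-07). CDC25A, the phosphatase that activates CDK2, rose by 1.29 ± 0.08 (edgeR FDR = 3.93e-09) and had -0.74 ± 0.07 with the compound (edgeR FDR = 1.33e-06), the latter call being lost with total library size as the scale. The E cyclins parted: CCNE1 fell by 0.61 ± 0.09 (edgeR FDR = 2.86e-05) and CCNE2 rose by 0.93 ± 0.11 at 1% O2 (edgeR FDR = 6.23e-06). The call on CCNE1 was lost with no filter on low counts, and that on CCNE2 with length and GC trends removed (0.54). CCNA2 rose by 0.78 ± 0.08 (edgeR FDR = 1.76e-06) and fell with 32-134D (log2 fold change -0.73, edgeR FDR = 4.87e-06), and both calls were lost with total library size as the scale. CDK2 did not pass, at 0.47 ± 0.07 for hypoxia and -0.38 ± 0.07 for the compound.

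Of the 3 remaining family genes, CCNG1, the paralog of CCNG2, had a log2 fold change of 0.01 ± 0.09 for hypoxia (95% confidence interval -0.19 to 0.21). CDKN2A, which lies beside CDKN2B and encodes p16 and p14ARF, measured 212 to 306 CPM over the 9 libraries with a log2 fold change of 0.20 ± 0.12 (edgeR FDR = 0.188). CDKN3, a phosphatase of CDK2, fell by 0.81 ± 0.16 at 1% O2 (edgeR FDR = 0.00045).

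Genes that destroy or stabilize the members' proteins were split at 1% O2, where 5 of 10 rose and 2 fell. The shares over all genes tested were 19.5% and 20.3%. SKP2, the F-box protein that marks p27 for destruction, measured 143, 135 and 144 CPM at 20% O2, 84.6, 84.1 and 85.5 CPM at 1% O2, and 130.1, 128 and 63.7 CPM with 32-134D. It fell by 0.74 ± 0.18 on the log2 scale at 1% O2 (edgeR FDR = 0.0034), and its compound value was 0.34 (edgeR FDR = 0.140) with all libraries and 0.61, past both thresholds, without treated replicate 3. CKS1B, the cofactor that SKP2 needs to recognize p27, went the other way and rose by 1.42 ± 0.10 (edgeR FDR = 2.38e-08), with -1.04 ± 0.10 for the compound (edgeR FDR = 8.13e-07). FBXO31, an F-box protein directed at cyclin D1, rose by 0.86 ± 0.11 (edgeR FDR = 7.17e-06), and FBXO4, another one, fell by 0.79 ± 0.17 (edgeR FDR = 0.00104). FBXO4 rose by 0.60 with 32-134D (edgeR FDR = 0.00633), but not when replicate 2 of the treated or the hypoxic vehicle group was left out. COPS5, CUL1 and SKP1 rose by 0.70, 0.63 and 0.62 at 1% O2, and none of these 3 calls held with total library size as the scale. CUL1 also lost its call without vehicle at 20% O2 replicate 1, and SKP1 without replicate 2 or replicate 3 of that group.

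Of 12 transcription factors known to act on the members' promoters, 7 rose at 1% O2 and 6 fell with 32-134D, against 19.5% and 13.7% of all genes. The FOXO factors, which activate CDKN1B and CCNG2, were among them: FOXO3 measured 34.8, 41.8 and 42.7 CPM at 20% O2, 125, 118 and 122 CPM at 1% O2, and 56.0, 58.7 and 56.5 CPM with the compound. The 3 FOXO3 groups did not overlap, and it rose by 1.61 ± 0.08 at 1% O2 (edgeR FDR = 9.71e-10) and had -1.09 ± 0.08 with 32-134D (edgeR FDR = 7.79e-08). FOXO1 and FOXO4 rose by 0.71 and 0.75 and had -0.61 and -0.71 with the compound, all 4 calls lost with total library size as the scale. The compound's call on FOXO1 was also lost without vehicle at 1% O2 replicate 2 or 3 or without 32-134D replicate 1. SMAD4, which carries TGF-beta signals to CDKN2B, rose by 1.09 ± 0.07 (edgeR FDR = 5.81e-09) and had -0.67 ± 0.07 with 32-134D (edgeR FDR = 1.13e-06), the latter call being lost with total library size as the scale. KLF4 and KLF6, activators of CDKN1A, rose by 4.13 ± 0.18 (edgeR FDR = 7.26e-11) and 1.83 ± 0.09 (edgeR FDR = 7.8e-10) beside a CDKN1A that did not pass. MYC, which represses CDKN1A and CDKN2B through ZBTB17, rose by 1.08 ± 0.13 at 1% O2 (edgeR FDR = 4.63e-06), and with the compound its value was -0.38 with all libraries and -0.61, past both thresholds, without treated replicate 3.

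**Figure D5:**
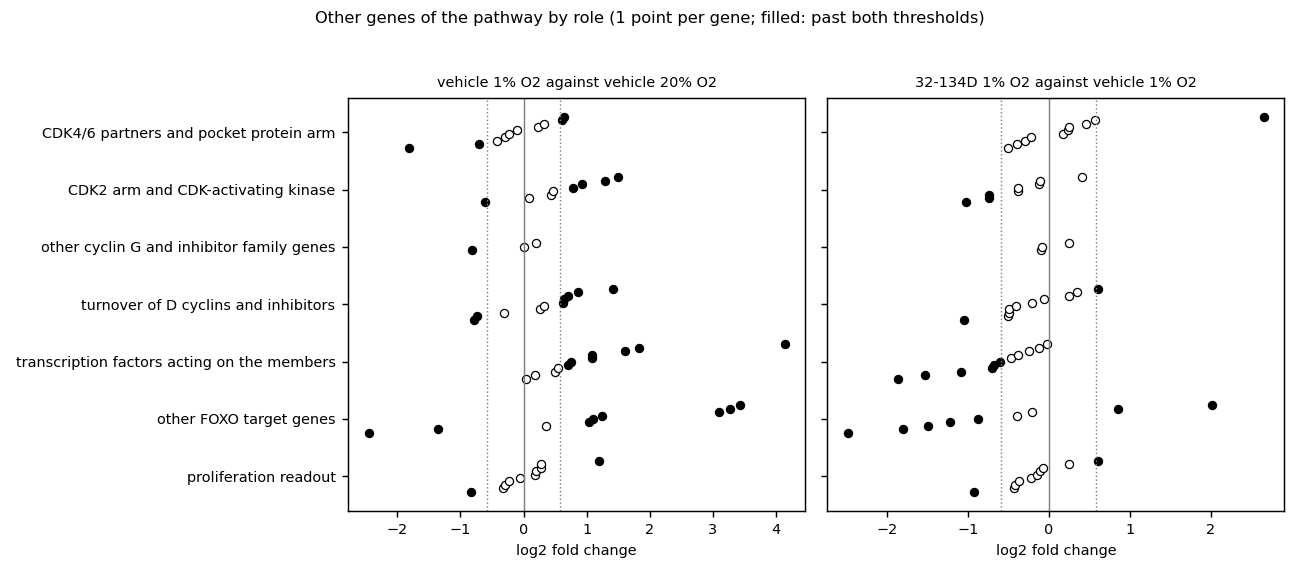
Log2 fold change of tested partner genes in 7 of the lists, 1 point per gene, for vehicle at 1% against 20% O2 and for 32-134D against vehicle at 1% O2; filled points passed both thresholds and dotted lines mark a fold of 1.5. For hypoxia KLF4 lies farthest to the right, at 4.13, and for the compound CITED2 lies farthest to the left, at -2.48, and CDK6 farthest to the right, at 2.66 with all libraries and 1.82 without 32-134D replicate 3, where KLF15 is at 2.01.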

How the data were processed

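Total RNA of 9 Hep3B cultures was sequenced on a NovaSeq6000. Per the labels and the study's methods, the authors trimmed and checked reads (Bbduk, FastQC), aligned them to GRCh38 with STAR and an Ensembl release 100 index, and counted them per gene with featureCounts; versions, strand and multimapping settings are not given in the sources used here. The deposited values are raw counts for 60683 genes, used as they stand. The edgeR p-values rest on the spread within groups, pooled over all 9 libraries and shared in part between genes. A library outside the groups compared therefore also enters a test. The spread between the 3 libraries of a group may be technical in part. The labels name DMEM/F12 medium and the study's methods DMEM, and the 3 libraries of a group are labelled as biological replicates.

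Genes with at least 10 counts in all were scaled by TMM and tested in 1 edgeR 4.0.16 quasi-likelihood fit over 3 groups (R 4.3.3), with Benjamini-Hochberg adjustment over 22672 genes. Standard errors and 95% confidence intervals come from that fit. The study's thresholds (FDR 0.05, fold 1.5) were kept; DESeq2 1.42.0, which the authors used, was an alternative. Those intervals include the spread between libraries, whereas the floor (3 counts) covers counting error only; the common biological coefficient of variation was 10.5%. Exon lengths are the joined exons of GENCODE 29 (GRCh38). Shares were tested by exact permutation (scipy 1.17.1). All members, and list genes (8 lists of partners, 4 of cell type markers) where their list is described, were named, plus the 3 nearest genes of 1 member; some items are not reported here. Members and lists were chosen with earlier results of these data known. The fit was tested on simulated data, whose outcome is not given here and is not used as support for the p-values. Pairs of replicates differed by 1.62 to 36.4 times the sampling variance, so none was a duplicate. Promoters and motifs are from RefSeq windows.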

Additional observations from a re-analysis of the deposited data

How the results depend on the processing

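Of the recomputed member log2 fold changes, 553 kept their direction and side of the thresholds, 29 newly passed and 15 changed sign, and none of the called members lost its call under any alternative that left the fold threshold at 1.5. The sign changes concern values near 0 in CDKN1A and CDKN2C, and CDKN2B. CDKN1A for hypoxia was -0.054 with total library size, -0.034 with upper quartile factors and -0.054 with libraries thinned to the smallest. For the compound, without 1 library, CDKN1A ranged from -0.022 to 0.249 and CDKN2B from -0.30 to 1.11, both lowest without 32-134D replicate 3. CDKN2C for the compound was 0.0037 with RLE factors, 0.13 with total library size, 0.067 with upper quartile factors, 0.043 with at least 10 counts in every library, 0.0047 with only the 2 groups compared, 0.17 after thinning, 0.0099 with length and GC trends removed, and -0.24 to 0.30 when 1 library was left out. The cause was not tested beyond the library named.

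At 1% O2, 4 members rose with no filter, only the 2 groups compared or no fold threshold. In that comparison 3 fell with only the 2 groups compared, total library size, upper quartile factors or thinning, and 1 with a fold above 2. For the compound 2 members were higher with no filter, and 1 to 2 when 1 library was left out. Against vehicle at 20% O2, where no member was called, 1 was higher with DESeq2, RLE factors, the robust spread, length and GC trends removed or no fold threshold, 2 with no filter, and 0 to 1 when 1 library was left out. There 1 was lower with total library size, upper quartile factors, thinning, the replicate block or no fold threshold, 2 with no filter, and 0 to 1 when 1 library was left out. The fit with no filter shared the spread fully between genes (infinite prior degrees of freedom, against 8.26). Numbers did not pair the libraries (correlations of same-numbered deviations -0.207 to 0.0850); the replicate block called CDKN1C lower against vehicle at 20% O2 (log2 fold change -0.71, edgeR FDR = 0.0386), as total library size, upper quartile factors and thinning did, and changed no other member call.

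Partner genes at 1% O2 were 16 higher and 3 lower with a fold above 2, and 17 lower with no fold threshold. For the compound 12 were higher and 11 lower with total library size, 8 higher with upper quartile factors, with at least 10 counts in every library or after thinning, 15 higher and 34 lower with no fold threshold, 2 higher and 9 lower with a fold above 2, and 2 to 8 higher when 1 library was left out. Against vehicle at 20% O2, 15 were higher and 3 lower with no fold threshold, 3 higher with a fold above 2, 1 lower with total library size, upper quartile factors or length and GC trends removed, and 0 to 1 lower when 1 library was left out.

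With the longest annotated transcript as length, CCND1 made up 54.5%, 22.7% and 46.5% of the D cyclin level in vehicle at 20% O2, vehicle at 1% O2 and 32-134D, CCND3 45.5%, 77.2% and 53.4%, and CDKN1C 83.9% of the CIP/KIP level at 20% O2. Among all genes called for hypoxia 49.0% were higher with TMM and 34.5% with total library size (35.7% with upper quartile factors), and for the compound 54.2%, 72.0% and 66.1%. Depth limits CCND2, with 57 counts in all, and CDKN2D at 20% O2.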

Other observations

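Other genes that FOXO factors are known to activate moved widely. Of 9 such genes, 6 rose and 2 fell at 1% O2, and 2 rose and 5 fell with 32-134D. Over all genes tested 19.5% rose and 20.3% fell at 1% O2, and 16.2% rose and 13.7% fell with 32-134D. GADD45A, which arrests growth and helps repair DNA, measured 19.6, 15.7 and 15.6 CPM in vehicle at 20% O2, 147, 204 and 201 CPM in vehicle at 1% O2, and 51.8, 54.2 and 52.5 CPM with the compound. It rose by 3.43 ± 0.13 on the log2 scale at 1% O2 (edgeR FDR = 4.78e-11) and had -1.80 ± 0.11 with 32-134D (edgeR FDR = 2.26e-08). CITED2, a competitor of HIFs for their coactivator, rose by 3.10 ± 0.08 (edgeR FDR = 2.26e-12) and had -2.48 ± 0.08 (edgeR FDR = 4.69e-11), and FBXO32, a ubiquitin ligase subunit of wasting muscle, 3.27 ± 0.17 (edgeR FDR = 5.54e-10) and -1.49 ± 0.13 (edgeR FDR = 3.34e-07). KLF15 and SESN3 fell at 1% O2, with log2 fold changes of -2.45 ± 0.13 (edgeR FDR = 1.32e-09) and -1.35 ± 0.29 (edgeR FDR = 0.000971), and had 2.02 ± 0.13 (edgeR FDR = 2.06e-08) and 0.85 ± 0.28 (edgeR FDR = 0.0208) with 32-134D. The compound call on SESN3 was lost without any 1 of the hypoxic vehicle libraries or without 32-134D replicate 1 or 2, and its value was 1.21 without replicate 3. In treated cells GADD45A, FBXO32, CITED2 and IRS2 were still higher than in vehicle at 20% O2, by 1.64, 1.78, 0.62 and 0.65 on the log2 scale. The call on CITED2 was lost without 32-134D replicate 2, and that on IRS2 without 32-134D replicate 3 (0.37) or without vehicle at 20% O2 replicate 2.

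Of 10 genes of proliferating cells, 8 passed neither for hypoxia nor for the compound. Over all genes tested 39.7% were called for hypoxia and 29.9% for the compound, in either direction. CDK1, the mitotic kinase, rose by 1.19 ± 0.10 at 1% O2 (edgeR FDR = 1.48e-07) and had -0.92 ± 0.10 with 32-134D (edgeR FDR = 2.73e-06). With length and GC trends removed the compound value was -0.54 and its call was lost, and the lowest hypoxia value over all alternatives was 0.67. MKI67, the proliferation antigen, fell by 0.83 ± 0.13 (edgeR FDR = 8.81e-05) and rose by 0.60 ± 0.13 with the compound (edgeR FDR = 0.00164). With length and GC trends removed the MKI67 values were -0.08 and -0.06, and the compound's call was also lost without replicate 2 of either group at 1% O2.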
